A study of Mus musculus with 33 samples.

Results

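The 40 genes described here encode enzymes that add methyl groups to histones or remove them, or belong to the same families. They were chosen by symbol from the messenger RNA table of 12348 genes: symbols that begin with Kdm, Kmt or Setd followed by a number (or by a or b after Setd), together with Ezh1, Ezh2, Ehmt1, Ehmt2, Nsd1, Dot1l, Suv39h1 and Suv39h2. The rule reads symbols and no measured value, and all 40 passed the filter on low values. Their levels ran from 2.75 to 398 scaled CPM, where CPM brings each library's reads to a common total and the authors scaled it further, and no member had fewer than 44 reads in any library.

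Methyl groups on histone lysines mark regions of chromatin, and each mark has its own writers and erasers. Methylation of lysine 4 of histone H3 (H3K4) marks promoters and enhancers and is written by the Setd1 and Kmt2 enzymes in COMPASS complexes. H3K27 methylation by Polycomb repressive complex 2 (PRC2), whose catalytic subunit is Ezh2 or Ezh1, and H3K9 methylation by the Suv39h, Setdb1 and Ehmt enzymes mark silent chromatin. The Kdm enzymes remove methyl groups, and in stratified epithelia Ezh2 and other writers are known to hold back differentiation genes in basal cells.

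The study cultured mouse esophageal basal cells, the dividing layer of the squamous epithelium, in a medium that contained the inhibitors Y-27632, CHIR99021, A83-01 and DMH-1. The cells carried floxed Nudt21, and the label of the PAS-seq samples gives the genotype as Nudt21 fl/fl; R26CreER, a Cre recombinase that 4-hydroxytamoxifen (4OHT) activates. Nudt21 encodes CFIm25, a subunit of the cleavage factor that favours distal poly(A) sites. Day 0 control cells received ethanol for 4 days and kept the floxed allele, KO cells received 0.05 µM 4OHT for 2, 4 or 6 days, and hypomorph cells received 0.05 µM 4OHT with 50 ng/ml doxycycline for 4 or 6 days. Every hypomorph library and no other had doxycycline, so the agent and the state cannot be told apart, and every comparison with day 0 sets 4OHT against ethanol. Ethanol was given for 4 days only, so the day 2 and day 6 groups also differ from day 0 in days of treatment. Steps from day 4 to day 6 have no ethanol control of their own. Time in treatment and the loss of Nudt21 cannot be told apart in these comparisons. Each of the 6 groups had 3 messenger RNA libraries. Nothing says that these came from separate animals or cultures, so p-values measure only the spread between the libraries, which may be technical.

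The libraries held 16.3 to 91.4 M (mega) reads on the listed genes. The 3 day 0 libraries held 16.3 to 19.0 M and the 3 KO day 2 libraries 52.2 to 69.6 M, so depth and group cannot be told apart there. Nudt21 itself stood at 12.2, 14.2 and 12.2 scaled CPM at day 0, 3.21, 2.77 and 3.09 at KO day 2, 2.7, 2.44 and 3.95 at KO day 4, 2.01, 1.34 and 1.78 at KO day 6, 4.91, 6.25 and 3.85 at hypomorph day 4 and 3.94, 0.999 and 3.38 at hypomorph day 6. It was lower than day 0 in every KO and hypomorph library, while hypomorph and KO overlapped at both days. The 9 basal markers (such as Krt5, Krt14 and Trp63) summed to 28144 to 33776 scaled CPM over all groups. The summed squamous differentiation list (12 of its 13 genes present, such as Krt13 and Sprr3) ran from 904 to 3118 at day 0, where library 2 was highest, from 5312 to 7268 at KO day 6 and from 1616 to 1821 at hypomorph day 6. Alb, the defining liver gene, ranged from 5.61 to 762 scaled CPM and exceeded 100 in 7 of 18 libraries, none of them hypomorph. Of the leukocyte list only Ptprc, Laptm5 and Cd68 of 6 genes were present, and Ptprc was at 15.9 scaled CPM or less. Of them Cd68 was called higher, from 62.9 to 81.3 at day 0 to 444 to 498 at KO day 6 and 470 to 510 at hypomorph day 6. The fibroblast list (1 of 6 genes) summed to at most 2.29 and the endothelial list (1 of 4) to at most 2.8. Acta2, the 1 of 5 muscle genes present, ran from 5.06 to 8.68 at day 0, 49.2 to 56.1 at KO day 6 and 53.8 to 68.5 at hypomorph day 6. The part of these differences in the changes below was not tested, and in such bulk samples fewer cells of a type and less RNA per cell cannot be told apart.

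Against day 0, the enzymes changed little at day 2 and widely at day 6. Differences were tested with limma on log2(scaled CPM + 0.5) in 1 fit of all 18 libraries, and a gene was called at a Benjamini-Hochberg adjusted p under 0.05 over all 12344 genes tested. Changes are on that log2 scale and are given ± SE, with 3 libraries in each group. At KO day 2, 1 member rose (11.7% of all genes did) and 1 fell (7.29% of all genes). At KO day 4, 8 members rose and 11 fell, against 23.7% and 22.3% of all genes. At KO day 6, 11 members rose and 14 fell, against 33.6% and 37.5% of all genes. In the hypomorph, 4 rose and 4 fell at day 4, against 17.5% and 14.1% of all genes, and 14 rose and 15 fell at day 6, against 35.9% and 31.3% of all genes. As shares of the 40 members these counts are 27.5% up and 35.0% down at KO day 6 and 35.0% up and 37.5% down at hypomorph day 6, close to the shares of all genes. The sizes were smaller than for genes at large: the median absolute log2 change was 0.36 for the members and 0.56 for all genes at KO day 6, and 0.43 and 0.51 at hypomorph day 6. At least 2-fold changes were called for 7 members at KO day 6, where 26.5% of all genes had one, and for 8 at hypomorph day 6, where 20.8% had one. The sets were not matched for level. Every member had at least 44 reads in each library, while a gene needed only 1 scaled CPM in 3 libraries to be tested. The median absolute log2 change already differed at KO day 2, at 0.08 for the members and 0.18 for all genes.

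Of the scalings tried, plain CPM moved the hypomorph day 6 split. Median-of-ratios scaling gave 13 up and 15 down there, with 51.0% of the called genes of the whole table higher. The edgeR fit on recovered reads gave 13 up and 16 down, with 49.9% higher. With plain CPM, each library scaled to its own listed reads alone, in place of the authors' scaling, the median of all genes moved from 0.03 to -0.15 on the log2 scale at hypomorph day 6, 40.4% rather than 53.5% of the called genes were higher, and 9 members rose and 21 fell. At KO day 6 the same scaling left 11 up and 14 down, with 48.9% of the called genes of the whole table higher. At KO day 2, where it moved the share of called genes that were higher from 61.6% to 41.7%, 1 member rose and 2 fell. All 25 calls of KO day 6 were kept when any 1 library was left out, while at KO day 4 only 9 of 19 were. Under every alternative, 17 of the 25 KO day 6 calls held. Fewer members were called at KO day 6 without libraries with Alb above 100, which leaves 1 library each at day 0 and KO day 6. The 9 kept at KO day 4 were Ezh1, Ezh2, Kdm2b, Kdm5b, Nsd1, Setd5, Setd7, Setdb1 and Suv39h2. The KO day 4 count ran from 12 to 16 without 1 library, with 12 (6 up, 6 down) without KO day 4 library 2. The hypomorph day 4 count was 5 to 7 without 1 library, with 5 without day 0 library 1 or hypomorph day 4 library 2 or 3. Kept there in each case were Kdm4a, Kdm5b, Kdm7a, Setd5 and Suv39h2. The authors' deposited table gave the same result, of up, down or not called, for all 40 members at KO day 4, KO day 6 and hypomorph day 4. At KO day 2 and hypomorph day 6 it did so for 39. It also called Ezh2 up at KO day 2 (authors' FDR 0.0494) and Kdm3a up at hypomorph day 6 (authors' FDR 0.0457). At KO day 6 it called 11 up and 14 down.

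**Figure D1:**
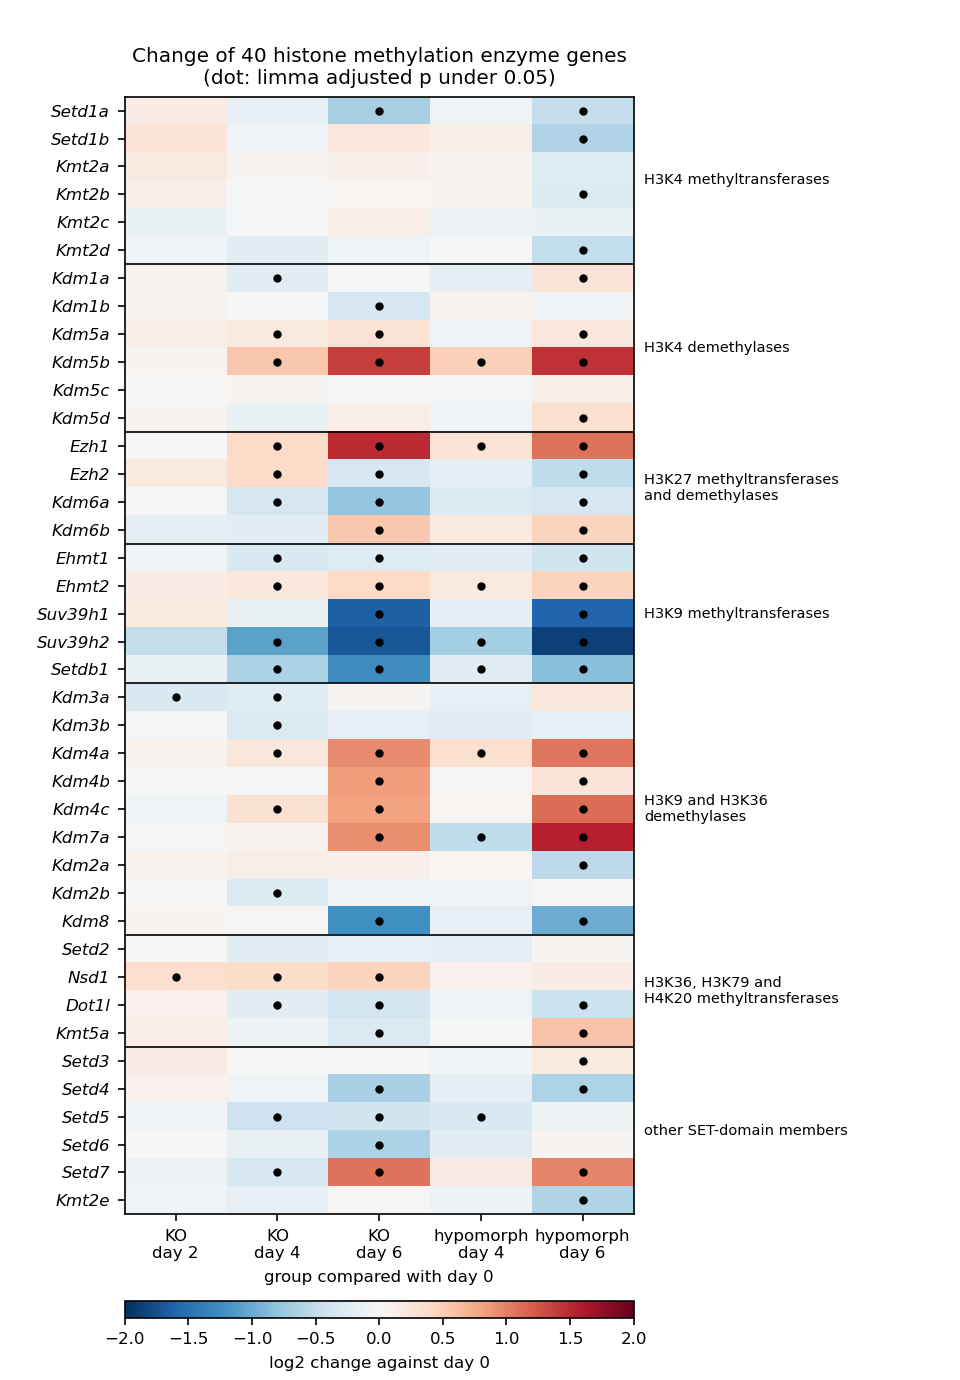
Heat map of the log2 change of the 40 genes (rows, ordered by the mark they act on) in the 5 groups against day 0 (columns), with red for higher and blue for lower. A dot marks a limma adjusted p under 0.05. The columns for day 6 hold most of the dots (25 for KO and 29 for the hypomorph), and the deepest blue lies on Suv39h1 and Suv39h2.

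The writers of H3K9 methylation held the largest falls of the family. Of 5 such genes, 4 fell and 1 rose at KO day 6 (median log2 -1.24, against -0.03 for all genes, of which 37.5% fell and 33.6% rose). The same counts held at hypomorph day 6 (median -0.83, against 0.03 for all genes, of which 31.3% fell and 35.9% rose). Suv39h1 and Suv39h2 encode paired enzymes that trimethylate H3K9 in the heterochromatin around centromeres. Suv39h1 read 79.5, 67.5 and 66.5 scaled CPM in the day 0 libraries, 77.4, 83.3 and 83 at KO day 2, 65.5, 64.4 and 61.8 at KO day 4 and 25, 17.5 and 25.6 at KO day 6. In the hypomorph it read 59.2, 57.8 and 68.9 at day 4 and 21, 23.5 and 26.1 at day 6. The day 6 libraries of both states lay far below every other library. The KO day 4 libraries lay just below day 0 and those of hypomorph day 4 overlapped it, and neither was called. The fall was 0.32-fold of day 0 at KO day 6 (log2 -1.64 ± 0.11, limma adjusted p = 4.91e-13) and 0.335-fold at hypomorph day 6 (log2 -1.58 ± 0.11, limma adjusted p = 1.59e-12). Almost all of it came after day 4 (log2 -1.49 ± 0.11, limma adjusted p = 1.09e-11 for KO day 6 against KO day 4).

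Suv39h2 is the scarcer of the pair and fell earlier. It read 10.6, 11 and 15.7 scaled CPM at day 0, 8.53, 9.64 and 8.06 at KO day 2, 5.44, 5.76 and 5.55 at KO day 4 and 3.43, 3.69 and 3.21 at KO day 6, and 9.09, 7.21 and 6.24 and 3.06, 2.75 and 3.19 at hypomorph days 4 and 6. Every KO and hypomorph library lay below the lowest day 0 library, and day 0 library 3 stood above the other two. The change was called at KO day 4 (log2 -1.07 ± 0.18, limma adjusted p = 1.43e-05), KO day 6 (log2 -1.69 ± 0.18, limma adjusted p = 1.45e-09), hypomorph day 4 (log2 -0.68 ± 0.18, limma adjusted p = 0.00373) and hypomorph day 6 (log2 -1.87 ± 0.18, limma adjusted p = 2.86e-10). At KO day 2 it was not called (log2 -0.47 ± 0.18, limma adjusted p = 0.0639). The level of Suv39h1 per length over that of Suv39h2 went from 8.25, 6.76 and 4.65 at day 0 to 13.2, 12.3 and 12.2 at KO day 4 and back to 8.03, 5.2 and 8.76 at KO day 6. The KO day 4 libraries lay above those of day 0 and KO day 6. Each gene's length was held the same in every group, although poly(A) site use was not. By PAS-seq the proximal share of Suv39h2 went from 11.1% in control to 49.1% at KO day 4, and that of Suv39h1 from 0.7% to 1.2%. The part of shorter message ends in this ratio, or in the Suv39h2 level, was not tested.

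The promoter windows of the paired genes are shown because they fell together at day 6 and are the members with the deepest falls. They come from RefSeq (GRCm38.p6), run 5′ to 3′ on the gene's strand from 250 bases before the start to 50 after it, and carry capitals where a script found letters of the type that E2F factors bind. The letters searched were TTTCCCGC, TTTGGCGC, TTTCGCGC and TTCCCGCC on either strand, of which the first and the last can overlap, and 3.49% of the 32851 windows of the table hold one. Of the 31 members with a window, which have 42 windows among them, Suv39h2 and Ezh2 hold one. That count is by gene and the share above is by window, so they are not set against each other. Suv39h1 (chrX:8074711-8075010, minus strand) has no match in the window shown and Suv39h2 (chr2:3474937-3475236, minus strand) has TTCCCGCC. A match is a description of the letters, not of binding.
Suv39h1: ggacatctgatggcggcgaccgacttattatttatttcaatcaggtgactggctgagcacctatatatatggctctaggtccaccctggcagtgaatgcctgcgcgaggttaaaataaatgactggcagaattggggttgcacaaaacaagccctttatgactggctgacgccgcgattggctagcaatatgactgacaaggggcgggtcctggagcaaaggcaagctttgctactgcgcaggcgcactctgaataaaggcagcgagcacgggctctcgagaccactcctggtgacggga
Suv39h2: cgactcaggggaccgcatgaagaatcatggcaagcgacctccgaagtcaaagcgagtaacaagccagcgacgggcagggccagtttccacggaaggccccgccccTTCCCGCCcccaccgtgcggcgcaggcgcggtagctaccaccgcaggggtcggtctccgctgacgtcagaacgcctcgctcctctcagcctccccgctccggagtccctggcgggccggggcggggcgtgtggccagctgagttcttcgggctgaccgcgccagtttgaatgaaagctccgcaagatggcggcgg

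Setdb1 encodes the H3K9 trimethylase that works with the co-repressor Trim28. It read 103, 95.9 and 103 scaled CPM at day 0, 94.8, 85.3 and 94.5 at KO day 2, 66, 59.7 and 69.2 at KO day 4 and 40.8, 41.4 and 45 at KO day 6, a descent in which each KO group lay wholly below the one before. The hypomorph libraries read 86.5, 85.5 and 85.3 at day 4 and 49.4, 57 and 63.3 at day 6, above the KO libraries of the same day. The changes against day 0 were log2 -0.63 ± 0.09, limma adjusted p = 8.81e-07 at KO day 4, log2 -1.24 ± 0.09, limma adjusted p = 3.74e-13 at KO day 6 and log2 -0.83 ± 0.09, limma adjusted p = 1.8e-09 at hypomorph day 6. Hypomorph and KO differed at day 4 (log2 0.40 ± 0.09, limma adjusted p = 0.00105) and at day 6 (log2 0.41 ± 0.09, limma adjusted p = 0.000175). The small fall at hypomorph day 4 (log2 change -0.23) lost its call when 1 library was left out.

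Ehmt2 and Ehmt1 encode G9a and GLP, which act as a pair and write mono- and dimethylated H3K9, and they moved in opposite directions. Ehmt2 went from 151, 149 and 163 scaled CPM at day 0 to 202, 192 and 219 at KO day 6 and 200, 215 and 218 at hypomorph day 6 (log2 0.40 ± 0.07, limma adjusted p = 1.25e-05 and log2 0.45 ± 0.07, limma adjusted p = 3.28e-06). Ehmt1 went from 77.8, 77.7 and 83.1 to 65, 66.1 and 67.7 and 51, 64 and 66.2 (log2 -0.26 ± 0.09, limma adjusted p = 0.0109 and log2 -0.40 ± 0.09, limma adjusted p = 0.000261). Neither gene's day 6 libraries overlapped day 0. Per length, Ehmt2 over Ehmt1 was 2.5, 2.47 and 2.52 at day 0, 4.02, 3.74 and 4.18 at KO day 6 and 5.04, 4.33 and 4.24 at hypomorph day 6. The proximal poly(A) site share of Ehmt1 went from 12.7% in control to 46.1% at KO day 4, and that of Ehmt2 from 40.8% to 41.1%. The part of this in the ratio was not tested.

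Of the 4 H3K27 enzymes, 2 rose and 2 fell at KO day 6, where 33.6% of all genes rose and 37.5% fell. The same counts held at hypomorph day 6, against 35.9% and 31.3% of all genes. Ezh2, the PRC2 subunit of dividing cells, read 150, 149 and 152 scaled CPM at day 0 and rose to 211, 198 and 184 at KO day 4 (log2 0.39 ± 0.07, limma adjusted p = 7.55e-05). At KO day 6 it was 115, 115 and 129, below every day 0 library (log2 -0.33 ± 0.07, limma adjusted p = 0.000235). The hypomorph libraries read 135, 135 and 128 at day 4 and 109, 101 and 106 at day 6, below day 0 at both days. The day 4 difference was not called (log2 -0.18 ± 0.07, limma adjusted p = 0.0641) and the day 6 fall was log2 -0.51 ± 0.07, limma adjusted p = 6.47e-07. Ezh2 was the only member that was called up at KO day 4 and down at KO day 6, and the states differed at day 4 (log2 -0.57 ± 0.07, limma adjusted p = 1.73e-06). KO day 2 libraries read 181, 158 and 180 (log2 0.20 ± 0.07, limma adjusted p = 0.0598, not called).

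Ezh1, the weaker alternative subunit found also in cells that no longer divide, rose. It read 27.3, 25.4 and 28.5 scaled CPM at day 0, 26, 27 and 28.9 at KO day 2, 37, 35.8 and 33.2 at KO day 4 and 74.5, 72 and 84.7 at KO day 6. The hypomorph had 32.1, 33.7 and 32.5 at day 4 and 50.3, 64.4 and 59.2 at day 6. KO day 6 was highest, above every hypomorph library, at 2.81-fold of day 0 (log2 1.49 ± 0.10, limma adjusted p = 6.97e-14), against 2.11-fold at hypomorph day 6 (log2 1.08 ± 0.10, limma adjusted p = 8.64e-11). The state difference at day 6 was log2 -0.41 ± 0.10, limma adjusted p = 0.000492. Per length, Ezh2 exceeded Ezh1 by 7.49, 8.02 and 7.27 times in the day 0 libraries, by 7.8, 7.54 and 7.58 times at KO day 4 and by only 2.1, 2.17 and 2.08 times at KO day 6. The hypomorph libraries gave 5.75, 5.46 and 5.38 at day 4 and 2.95, 2.15 and 2.45 at day 6, so the day 6 libraries of both states lay below all others.

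The promoter windows of the PRC2 pair are shown because the genes moved in opposite directions at day 6. Ezh2 (chr6:47594981-47595280, minus strand) holds TTTGGCGC, in capitals, and Ezh1 (chr11:101226414-101226713, minus strand) has no match in its window.
Ezh2: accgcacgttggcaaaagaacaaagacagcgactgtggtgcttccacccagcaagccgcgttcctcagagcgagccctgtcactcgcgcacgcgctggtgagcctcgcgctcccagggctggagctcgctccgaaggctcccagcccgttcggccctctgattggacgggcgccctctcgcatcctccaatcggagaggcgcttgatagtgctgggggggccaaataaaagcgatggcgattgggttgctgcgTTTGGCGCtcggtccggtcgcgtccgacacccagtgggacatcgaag
Ezh1: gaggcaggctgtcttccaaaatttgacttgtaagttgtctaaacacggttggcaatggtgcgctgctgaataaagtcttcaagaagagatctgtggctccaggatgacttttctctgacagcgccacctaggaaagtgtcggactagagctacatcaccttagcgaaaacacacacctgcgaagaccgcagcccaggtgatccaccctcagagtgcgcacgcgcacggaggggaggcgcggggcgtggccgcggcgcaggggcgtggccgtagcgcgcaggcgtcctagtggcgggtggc

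Kdm6a (UTX) and Kdm6b (JMJD3) are the H3K27 erasers. Kdm6a fell from 49.9, 42.5 and 49.2 scaled CPM at day 0 to 27.3, 30.7 and 23.9 at KO day 6 (log2 -0.78 ± 0.11, limma adjusted p = 1.9e-07) and 33.6, 39.5 and 38.2 at hypomorph day 6 (log2 -0.34 ± 0.11, limma adjusted p = 0.00578). Kdm6b rose from 69, 70 and 78.7 to 99.6, 106 and 111 (log2 0.54 ± 0.10, limma adjusted p = 2.15e-05) and 86, 110 and 102 (log2 0.44 ± 0.10, limma adjusted p = 0.000273). All day 6 libraries lay outside the day 0 range for both genes. Kdm6b over Kdm6a per length went from 0.97, 1.16 and 1.12 at day 0 to 2.56, 2.43 and 3.25 at KO day 6 and 1.8, 1.96 and 1.86 at hypomorph day 6. The proximal poly(A) site share of Kdm6a went from 11.1% in control to 83.3% at KO day 4, not called by the authors, and Kdm6b was not listed. The part of this in the ratio was not tested. Kdm6a was higher in the hypomorph than in KO at day 6 (log2 0.44 ± 0.11, limma adjusted p = 0.000686), a call that plain CPM ended (log2 0.23, limma adjusted p = 0.074).

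**Figure D2:**
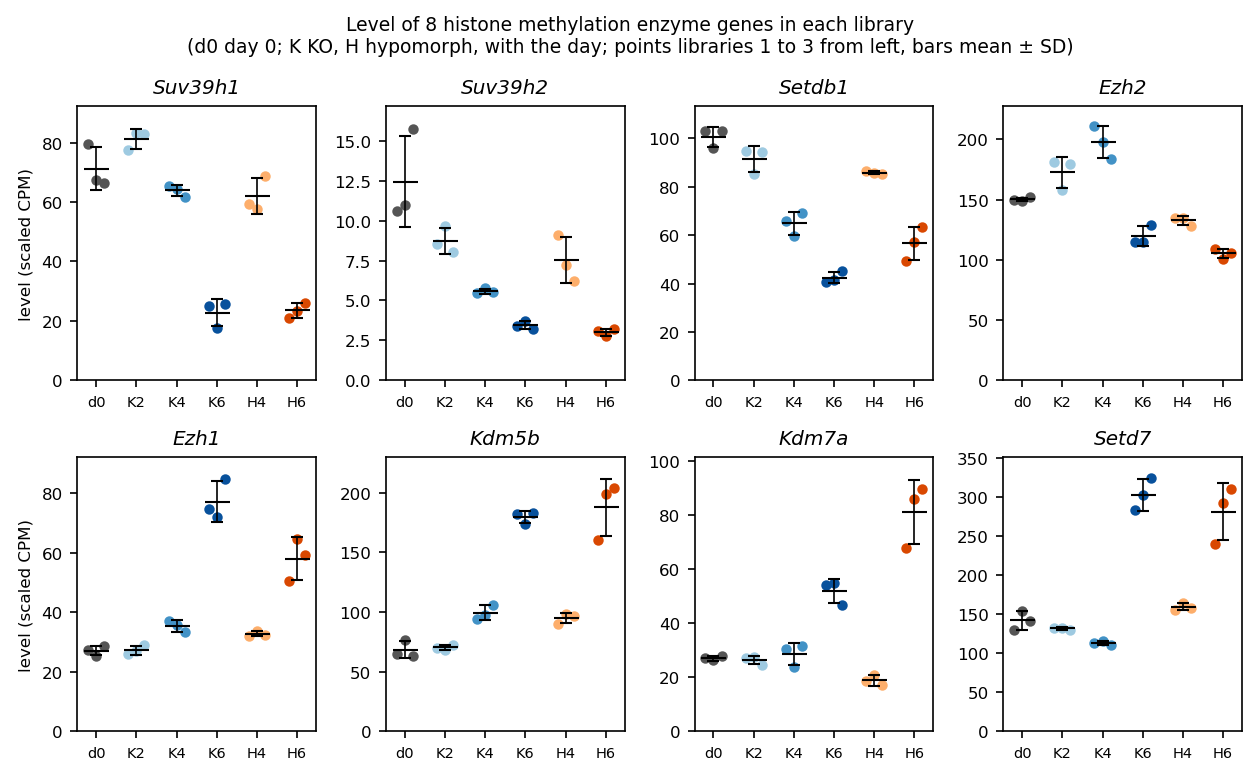
Level in scaled CPM (vertical axis, from 0) of 8 genes in each of 18 libraries, by group, with points for libraries and bars for mean ± SD. Suv39h1, Suv39h2, Setdb1 and Ezh2 are lower at day 6 of both states than at day 0, and Ezh1, Kdm5b, Kdm7a and Setd7 are higher.

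Among the erasers of H3K4 methylation, Kdm5b stood out. It removes tri- and dimethyl groups from H3K4. It read 65.2, 76.6 and 63.4 scaled CPM at day 0, 70, 68.5 and 72.8 at KO day 2, 94.5, 97.5 and 106 at KO day 4 and 182, 174 and 183 at KO day 6, and 90.4, 98.6 and 96.7 and 160, 199 and 204 at hypomorph days 4 and 6. Day 4 and day 6 libraries of both states lay above every day 0 and KO day 2 library, and the states overlapped at both days. The rise was log2 0.54 ± 0.09, limma adjusted p = 9.17e-06 at KO day 4, log2 1.39 ± 0.09, limma adjusted p = 3.15e-14 at KO day 6 and log2 1.45 ± 0.09, limma adjusted p = 1.74e-14 at hypomorph day 6.

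The other H3K4 erasers moved less. Kdm5a read 106, 108 and 107 scaled CPM at day 0, 131, 130 and 130 at KO day 6 and 112, 130 and 134 at hypomorph day 6, with a rise of 0.29 ± 0.07 log2 in KO (limma adjusted p = 0.000782). Its hypomorph day 6 rise (log2 0.22 ± 0.07, limma adjusted p = 0.00762) ended with plain CPM (0.04, limma adjusted p = 0.614). Kdm1a (LSD1), a flavin-dependent eraser of mono- and dimethyl H3K4, read 64.1, 76.8 and 64 at day 0 and 67.9, 66.8 and 67.5 at KO day 6 (log2 -0.01 ± 0.08, limma adjusted p = 0.894, not called). At hypomorph day 6 it read 82.2, 75.7 and 87 (log2 0.26 ± 0.08, limma adjusted p = 0.00712), with 1 library inside the day 0 range, a call that plain CPM ended (0.08, limma adjusted p = 0.373). Its relative Kdm1b read 42.1, 42.9 and 49 at day 0 and 36.4, 32.4 and 37.3 at KO day 6, all below day 0 (log2 -0.33 ± 0.09, limma adjusted p = 0.00269). Kdm5c, on the X chromosome, and Kdm5d, on the Y, are a homologous pair. Kdm5c ranged from 139 to 186 scaled CPM over all 18 libraries and was called in none of the comparisons with day 0 by limma. Kdm5d ranged from 35.1 to 57.5 and was present in every library, with a rise at hypomorph day 6 (log2 0.32 ± 0.09, limma adjusted p = 0.00267) that plain CPM ended (0.13, limma adjusted p = 0.14).

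The erasers of H3K9 and H3K36 methylation gave 4 rises and 1 fall of 9 genes at KO day 6 (median log2 0.10), against 33.6% and 37.5% of all genes (median -0.03). At hypomorph day 6 there were 4 rises and 2 falls (median 0.21), against 35.9% and 31.3% of all genes (median 0.03), so the share of rises was not far from that of all genes. The rises were the Kdm4 genes, whose enzymes remove trimethyl groups from H3K9 and H3K36, and Kdm7a, which acts on dimethylated H3K9 and H3K27. Kdm4a read 75.9, 94.6 and 81.5 scaled CPM at day 0, 93.3, 79.3 and 92.6 at KO day 2, 93, 104 and 97.6 at KO day 4 and 165, 152 and 170 at KO day 6, and 105, 98.5 and 112 and 166, 170 and 193 at hypomorph days 4 and 6. Both day 6 groups lay above all other libraries (log2 0.95 ± 0.09, limma adjusted p = 1.19e-10 for KO and log2 1.07 ± 0.09, limma adjusted p = 1.49e-11 for the hypomorph). Kdm4c read 39.5, 35.3 and 34.8 at day 0, 47.7, 41.9 and 46.2 at KO day 4, 64.5, 63.2 and 63.8 at KO day 6, 41, 38.4 and 33.4 at hypomorph day 4 and 67.3, 85.7 and 88.8 at hypomorph day 6. It rose in KO by 0.80 ± 0.10 and in the hypomorph by 1.12 ± 0.10 log2 (limma adjusted p = 4.48e-08 and 8.54e-11). At KO day 4 it was called (log2 0.31 ± 0.10, limma adjusted p = 0.0134) and at hypomorph day 4 not (log2 0.04 ± 0.10, limma adjusted p = 0.798), and the states did not differ by the call at that day. Kdm4b ranged from 23 to 50.4 and rose by log2 0.84 ± 0.10, limma adjusted p = 4.27e-08 at KO day 6. The hypomorph day 6 rise was log2 0.26 ± 0.10, limma adjusted p = 0.0318 and ended with plain CPM (0.07, limma adjusted p = 0.521), with a difference between the states of log2 -0.58 ± 0.10, limma adjusted p = 2.14e-05.

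Kdm7a went down and then up in the hypomorph. It read 27, 26.3 and 28 scaled CPM at day 0, 18.8, 21 and 17 at hypomorph day 4 and 67.9, 86.2 and 89.7 at hypomorph day 6, with no overlap between these groups. In KO it read 27.3, 27.4 and 24.5 at day 2, 30.6, 23.8 and 31.5 at day 4 and 54.3, 54.9 and 46.7 at day 6. Against day 0 the hypomorph change was log2 -0.51 ± 0.12, limma adjusted p = 0.00124 at day 4 and log2 1.56 ± 0.12, limma adjusted p = 1.82e-12 at day 6, and the KO change at day 6 was log2 0.93 ± 0.12, limma adjusted p = 4.4e-08. Its step from day 4 to day 6 differed between the states by 1.21 ± 0.16 log2 (limma interaction adjusted p = 1.06e-06), which is the widest such difference of the 40 genes.

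Kdm8 (JMJD5), reported both as an H3K36 demethylase and as a protein hydroxylase, is a scarce member that fell at day 6. It read 8.24, 11.5 and 12.4 scaled CPM at day 0, 10.5, 11.1 and 11.5 at KO day 2, 10.1, 10.2 and 11.9 at KO day 4, 4.7, 4.2 and 3.86 at KO day 6, 8.63, 9.68 and 9.95 at hypomorph day 4 and 3.99, 5.93 and 5.3 at hypomorph day 6. Day 6 of both states lay below every other group (log2 -1.22 ± 0.17, limma adjusted p = 2.15e-07 and log2 -1.0 ± 0.17, limma adjusted p = 5.99e-06). Kdm2a, a CpG-binding eraser of H3K36 dimethylation, ranged from 113 to 214 and was called, of the comparisons with day 0, at hypomorph day 6 alone (log2 -0.52 ± 0.08, limma adjusted p = 1.47e-06), a change that differed from KO (log2 -0.61 ± 0.08, limma adjusted p = 1.02e-07). Its relative Kdm2b ranged from 45.4 to 62.1 and was lower at KO day 4 (log2 -0.27 ± 0.09, limma adjusted p = 0.0112). The H3K9 erasers Kdm3a (43.4 to 73.9 scaled CPM) and Kdm3b (90.7, 79.6 and 92.3 at day 0, 70.2, 67 and 78 at KO day 4 and 70.1, 82.9 and 82.6 at KO day 6) were called at KO day 4 with falls of under 0.30 log2 that ended when 1 library was left out. At KO day 2 Kdm3a was the 1 gene called down (log2 -0.30 ± 0.10, limma adjusted p = 0.0309), and the call ended without any 1 of 5 libraries (limma adjusted p from 0.0515 to 0.142).

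Of the writers of H3K36, H3K79 and H4K20 methylation, Nsd1, which dimethylates H3K36, was the 1 gene called up at KO day 2. It read 260, 271 and 284 scaled CPM at day 0, 339, 339 and 349 at KO day 2, 358, 355 and 330 at KO day 4 and 365, 351 and 398 at KO day 6, every KO library above every day 0 library. The hypomorph libraries, at 271, 299 and 297 at day 4 and 254, 339 and 320 at day 6, overlapped day 0. The KO rise was log2 0.33 ± 0.08, limma adjusted p = 0.00472 at day 2, log2 0.36 ± 0.08, limma adjusted p = 0.000772 at day 4 and log2 0.45 ± 0.08, limma adjusted p = 2.02e-05 at day 6. Hypomorph and KO differed at day 4 (log2 -0.27 ± 0.08, limma adjusted p = 0.0184) and day 6 (log2 -0.29 ± 0.08, limma adjusted p = 0.00269). With a term for depth the day 2 rise was 0.22 (limma adjusted p = 0.158), and without libraries with Alb above 100 it was 0.34 (limma adjusted p = 0.151).

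Kmt5a (SET8), which writes the H4K20 monomethyl mark that rises toward mitosis, went opposite ways in the states at day 6. It read 196, 212 and 193 scaled CPM at day 0, 159, 152 and 181 at KO day 6 and 278, 292 and 322 at hypomorph day 6, with no overlap among the 3 groups. The other groups read 229, 205 and 224 at KO day 2, 190, 199 and 171 at KO day 4 and 188, 185 and 212 at hypomorph day 4. The KO change was log2 -0.29 ± 0.08, limma adjusted p = 0.00243 and the hypomorph change log2 0.57 ± 0.08, limma adjusted p = 5.31e-07, and the states differed by log2 0.86 ± 0.08, limma adjusted p = 4.68e-10. Kmt5a was the only member called in opposite directions in the states at day 6. Per length it was also the most abundant member at day 0 (60.2 ± 2.99 scaled CPM per kilobase, SD, n = 3), ahead of Ezh2 (48.7 ± 0.444) and Ehmt2 (37.2 ± 1.77). The next levels, Kdm2a (22.1 ± 1.28), Setd3 (22.1 ± 1.26), Kdm1a (21.7 ± 2.32) and Setdb1 (21.6 ± 0.884), did not differ beyond their spread, and Setd4 (1.06 ± 0.156) was lowest.

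Dot1l, the sole known H3K79 methyltransferase, read 70.7, 70.5 and 83.6 scaled CPM at day 0, 51.5, 60.7 and 59 at KO day 6 and 52.3, 58.8 and 55.4 at hypomorph day 6. It fell in both states (log2 -0.39 ± 0.09, limma adjusted p = 0.00028 and log2 -0.43 ± 0.09, limma adjusted p = 0.000106), with all day 6 libraries below day 0. Setd2, the writer of H3K36 trimethylation, read 135, 130 and 129 at day 0, 112, 118 and 119 at KO day 6 and 112, 148 and 152 at hypomorph day 6. It was called in none of the 5 comparisons with day 0, and neither were Kdm5c, Kmt2a and Kmt2c (unadjusted p from 0.0239 to 0.896 for these 4 genes over the 5 comparisons). The hypomorph exceeded KO for Setd2 at day 6 (log2 0.23 ± 0.09, limma adjusted p = 0.0255), but the libraries overlapped and plain CPM gave 0.02.

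Among the other SET-domain genes, Setd7, a monomethylase of H3K4 and of other proteins, reversed between day 4 and day 6 in KO. It read 130, 154 and 142 scaled CPM at day 0, 133, 132 and 130 at KO day 2, 113, 116 and 111 at KO day 4 and 283, 303 and 324 at KO day 6, so that day 4 lay below day 0 and day 6 far above it. The hypomorph read 156, 165 and 158 at day 4 and 240, 293 and 311 at day 6. Changes against day 0 were log2 -0.32 ± 0.08, limma adjusted p = 0.00184 at KO day 4, log2 1.09 ± 0.08, limma adjusted p = 1.83e-12 at KO day 6 and log2 0.98 ± 0.08, limma adjusted p = 2.37e-11 at hypomorph day 6. The states differed at day 4 (log2 0.50 ± 0.08, limma adjusted p = 5.48e-05) and not by the call at day 6 (log2 -0.11 ± 0.08, limma adjusted p = 0.232). Setd7 was the only member called down at KO day 4 and up at KO day 6.

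Setd6, which methylates the NF-kappaB subunit RelA, ranged from 20.7 to 36.4 scaled CPM and fell at KO day 6 (log2 -0.64 ± 0.09, limma adjusted p = 4.23e-07), with 20.7, 21.7 and 21.3 against 33.1, 33.2 and 33.9 at day 0 and 34.7, 33.6 and 35.8 at hypomorph day 6. Setd5 ranged from 123 to 177 and was lower at KO day 4 (log2 -0.42 ± 0.07, limma adjusted p = 1.34e-05), KO day 6 (log2 -0.40 ± 0.07, limma adjusted p = 1.11e-05) and hypomorph day 4 (log2 -0.31 ± 0.07, limma adjusted p = 0.00101), but not called at hypomorph day 6 (log2 -0.10 ± 0.07, limma adjusted p = 0.208). Setd3, an actin histidine methyltransferase, read 98.2, 92 and 103 at day 0, 95.2, 96 and 101 at KO day 6 and 111, 106 and 120 at hypomorph day 6, with a small hypomorph rise (log2 0.20 ± 0.07, limma adjusted p = 0.018) whose call ended when 1 library was left out and with plain CPM (0.01, limma adjusted p = 0.855). Setd4, at 3.53 to 9.23 scaled CPM the scarcest per length, fell in both states at day 6 (log2 -0.65 ± 0.18, limma adjusted p = 0.00244 and log2 -0.61 ± 0.18, limma adjusted p = 0.0046). Kmt2e (MLL5), a relative of the Kmt2 enzymes with little reported activity, ranged from 47.9 to 95 and was called, of the comparisons with day 0, at hypomorph day 6 alone (log2 -0.60 ± 0.10, limma adjusted p = 4.88e-06).

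Of the 6 writers of H3K4 methylation, 1 fell at KO day 6, where 37.5% of all genes did (median log2 0.07, all genes -0.03). At hypomorph day 6, 4 fell, where 31.3% of all genes did (median -0.38, all genes 0.03). Library 1 of that group was the lowest in all 6 genes, and the values without it, in which Kmt2b lost its call, are given below. Setd1a, the catalytic subunit of a COMPASS complex, was the gene that fell in both: it read 93.7, 100 and 117 scaled CPM at day 0, 62.8, 62.1 and 69.1 at KO day 6 and 59.9, 87.1 and 77.3 at hypomorph day 6 (log2 -0.67 ± 0.10, limma adjusted p = 1.3e-06 and log2 -0.48 ± 0.10, limma adjusted p = 0.000156). All day 6 libraries lay below day 0. Setd1b, its paralog, read 43.4, 49.3 and 52.8 at day 0, 53.6, 58.4 and 56.1 at KO day 6 and 24.5, 39.8 and 32.8 at hypomorph day 6, where every library was lower than in the other groups (log2 -0.60 ± 0.12, limma adjusted p = 5.82e-05). In KO Setd1b was not called (log2 0.21 ± 0.12, limma adjusted p = 0.11), and the states differed by log2 -0.81 ± 0.12, limma adjusted p = 9.92e-07.

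The Kmt2 genes encode the MLL enzymes. Kmt2d, the enhancer H3K4 monomethylase, read 112, 116 and 126 scaled CPM at day 0, 104, 123 and 106 at KO day 6 and 61.6, 98.1 and 97.5 at hypomorph day 6 (log2 -0.49 ± 0.13, limma adjusted p = 0.0029). Kmt2a read 90.6, 88.2 and 108, 92.6, 110 and 105 and 55.3, 99.1 and 92.7 in the same groups (log2 -0.25 ± 0.16, limma adjusted p = 0.172, not called), and Kmt2c read 74.6, 72.5 and 78.1, 75.3, 93 and 79.1 and 53.4, 80.8 and 74.9 (log2 -0.13 ± 0.11, limma adjusted p = 0.313, not called). Kmt2b ranged from 58.3 to 98.9 scaled CPM (log2 -0.28 ± 0.10, limma adjusted p = 0.0145). In all 6 writer genes hypomorph day 6 library 1 was the lowest of its group, by 0.42 to 0.79 on the log2 scale against the mean of the other 2 libraries. In that library the deviation of the 40 members correlated with the deposited gene length (Spearman rho -0.53 across 40 genes of 1 library, and -0.43 across all 12344 genes, which are not independent replicates). The other 17 libraries set against their own groups gave between -0.37 and 0.54 for the members. The highest was library 2 of the same group, which is set against library 1 in part, so its value is not independent. Across all genes that library gave 0.42, and the libraries of the other groups lay between -0.19 and 0.19.

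Without hypomorph day 6 library 1, the Setd1b fall against day 0 was -0.42 ± 0.10 (limma adjusted p = 0.000708), the Kmt2d fall -0.27 ± 0.09 (limma adjusted p = 0.00857), the Setd1a fall -0.33 ± 0.09 (limma adjusted p = 0.00209) and the Kmt2e fall -0.45 ± 0.09 (limma adjusted p = 4.49e-05). Kmt2b was then not called (-0.14, limma adjusted p = 0.170). What set this library apart was not tested.

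**Figure D3:**
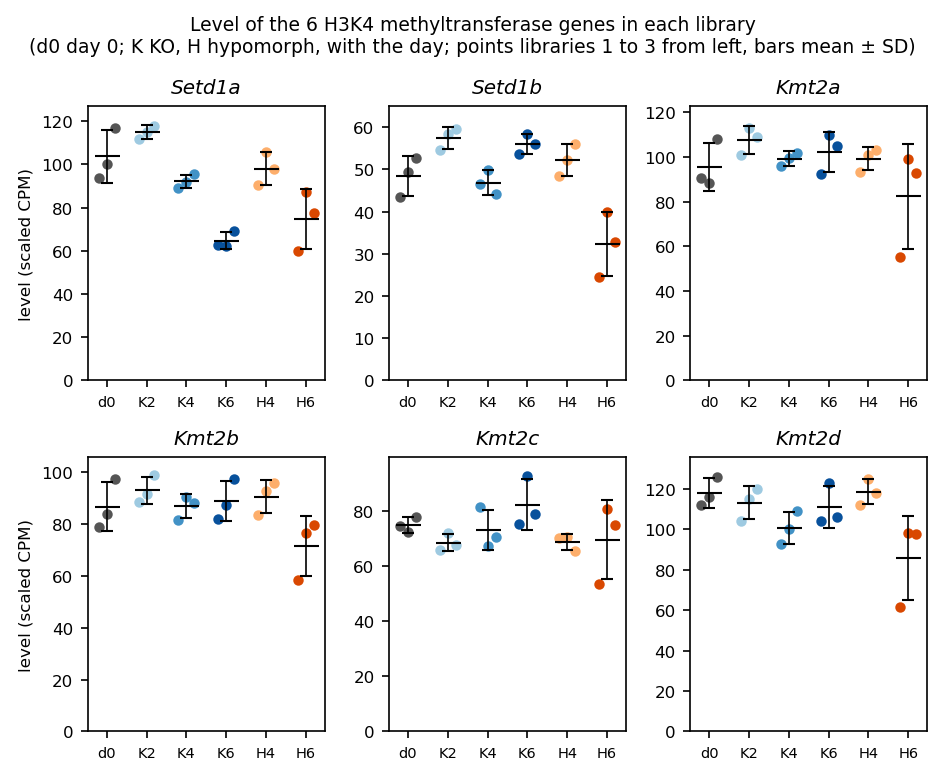
Level in scaled CPM (vertical axis, from 0) of the 6 H3K4 methyltransferase genes in each of 18 libraries, by group, with points for libraries and bars for mean ± SD. The first hypomorph day 6 point is the lowest of its group in every panel, and all KO day 6 points lie below day 0 in the Setd1a panel alone.

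Hypomorph and KO cells of the same day were compared directly, since both had less Nudt21 message than day 0 and differed in doxycycline and in the state that the labels name. At day 4, 3 members were higher in the hypomorph and 4 lower, against 13.9% and 10.7% of all genes. The higher genes were Setd7, Setdb1 and Kdm6b (log2 0.42 ± 0.10, limma adjusted p = 0.00237), and the lower were Ezh2, Kdm7a (log2 -0.58 ± 0.12, limma adjusted p = 0.000508), Kdm5a (log2 -0.26 ± 0.07, limma adjusted p = 0.00747) and Nsd1, whose call ended when 1 library was left out. At day 6, 11 were higher and 10 lower, against 37.7% and 27% of all genes, and no member reached a 2-fold difference, which 16.0% of all genes did. The largest differences were Kmt5a, Setd6 (log2 0.70 ± 0.09, limma adjusted p = 1.73e-07) and Kdm7a (log2 0.63 ± 0.12, limma adjusted p = 2.61e-05) upward, and Setd1b, Kmt2e (log2 -0.62 ± 0.10, limma adjusted p = 3.29e-06), Kdm2a and Kdm4b downward. With plain CPM the median of all genes moved from 0.07 to -0.13 log2, 40.4% rather than 58.2% of called genes were higher in the hypomorph, and 4 members were higher and 17 lower. Median-of-ratios scaling gave 8 members higher and 14 lower, with 50.2% of called genes higher. The edgeR fit gave 9 higher and 14 lower, with 51.5% of called genes higher. Calls that held under every alternative numbered 10: Ezh1, Kdm2a, Kdm4b, Kdm7a, Kmt2e, Kmt5a, Nsd1, Setd1b, Setd6 and Setdb1. Without hypomorph day 6 library 1, 16 were higher and 7 lower. The shares of all genes under that setting are not given, so these counts are not set against all genes. The calls of Kmt2b (-0.18, limma adjusted p = 0.0918), Kmt2c (-0.08, limma adjusted p = 0.476) and Kmt2d (-0.18, limma adjusted p = 0.0777) ended without that library. Nsd1 was then at -0.17 (limma adjusted p = 0.039) and Setd2 at 0.37 (limma adjusted p = 0.000139). Fewer members were called without the libraries with Alb above 100, which leaves 1 KO day 6 library.

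**Figure D4:**
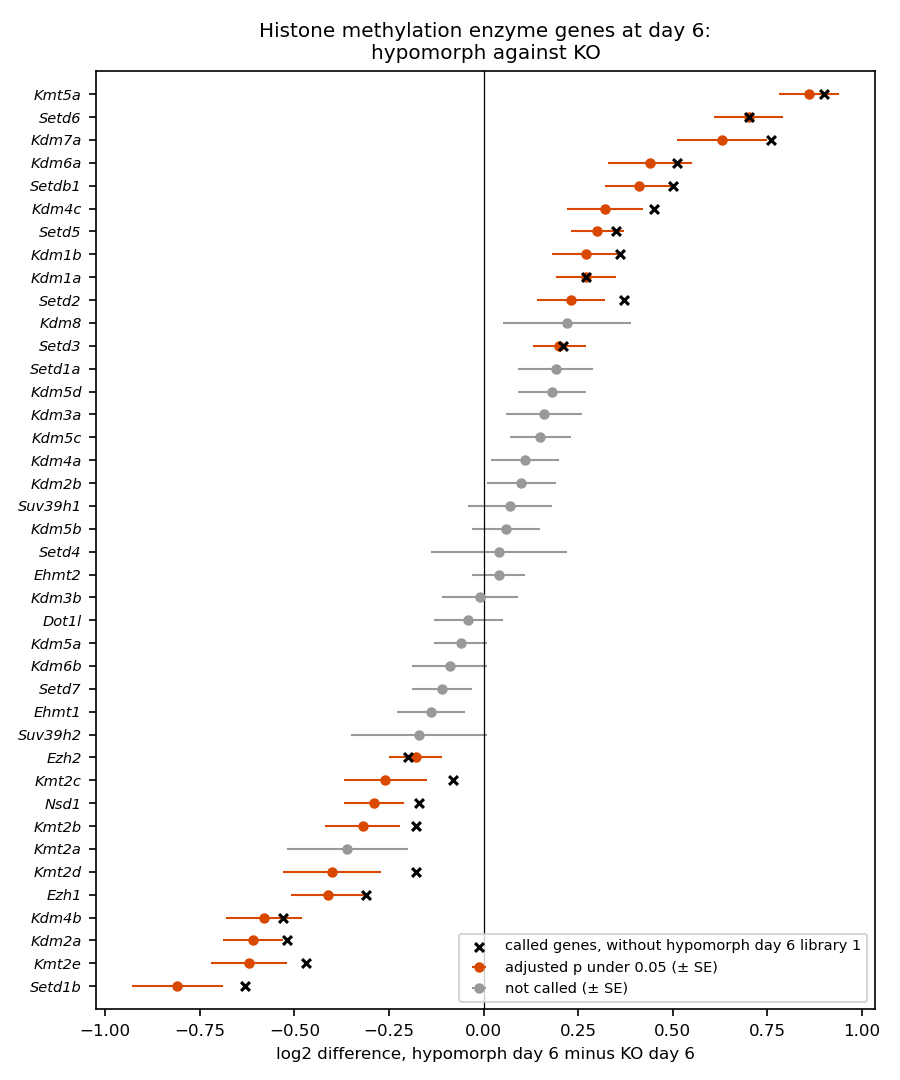
Log2 difference between hypomorph and KO at day 6 (horizontal axis, right is higher in the hypomorph) for the 40 genes, with bars for 1 SE, orange for a limma adjusted p under 0.05 and grey for the rest. Crosses give the called genes' values without hypomorph day 6 library 1, which move toward 0 for Kmt2b, Kmt2c and Kmt2d and away from 0 for Kdm4c and Setd2.

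From day 4 to day 6, 12 members rose and 11 fell in KO, against 26.6% and 33.1% of all genes, and 17 rose and 13 fell in the hypomorph, against 31.9% and 30.0% of all genes. With plain CPM the hypomorph count was 9 up and 16 down, as the median of all genes moved from 0.02 to -0.14 log2 and the share of called genes that were higher from 51.6% to 37.5%. Median-of-ratios scaling gave 17 up and 14 down in the hypomorph, and edgeR 16 up and 14 down, with 50.5% and 50.2% of the called genes of the whole table higher. In KO both gave 16 up and 10 down, with 51.1% and 49.8% of the called genes of the whole table higher. The largest steps in KO were Suv39h1 (-1.49 ± 0.11), Setd7 (1.42 ± 0.08), Kdm8 (-1.24 ± 0.17) and Ezh1 (1.11 ± 0.10 log2). In the hypomorph they were Kdm7a (2.07 ± 0.12), Suv39h1 (-1.38 ± 0.11), Suv39h2 (-1.18 ± 0.18) and Kdm4c (1.08 ± 0.10 log2). The step differed between the states, by the interaction of day and state, with a higher value in the hypomorph for 7 members and a lower one for 8, against 27.4% and 18.2% of all genes. With plain CPM these were 4 and 15, with a shift of the median of all genes from 0.09 to -0.12 log2 and of the share of higher calls from 60.1% to 37.0%. Median-of-ratios scaling and edgeR each gave 6 and 11, with shares of higher calls of 51.1% and 52.4%. Under every alternative Kdm7a, Kmt5a and Setd6 stayed called higher, and Kmt2e, Setd1b and Setd7 lower.

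PAS-seq reads the ends of messages and so the choice of poly(A) site, which CFIm25 is known to direct. For each gene and group the authors deposited a single ratio of proximal to distal use, so no value has a replicate error and no test was made. Of 4324 genes listed, 21 were members. The authors called 13 of these 21 (61.9%) Short in KO at day 4, meaning a shift toward the proximal site, against 49.4% of all listed genes, and 0 Long, against 2.2% of all genes, with 8 not called. The members called were Setd1b, Kdm5b, Setd7, Kmt2c, Kdm5a, Kdm1b, Nsd1, Dot1l, Kmt2d, Suv39h2, Kdm3b, Ehmt1 and Setd3. The proximal share was higher in KO for 19 of 21 members, against 83.5% of all genes, with a median shift of 37.9 points for the members and 19.8 for all genes. In the hypomorph, 6 members were called Short, against 21.8% of all genes: Setd1b, Setd7, Kmt2c, Dot1l, Kmt2d and Setd3, each also called in KO. The deposited hypomorph ratio is the KO ratio again for 12 of the 21 members (and for 3397 genes in all, to within 1e-06), so only the authors' hypomorph calls are given and their direction rests on the authors.

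The widest shifts were those of Setd1b, whose proximal share went from 10.7% in control to 93.1% in KO, and Kdm5b, from 11.5% to 93.5%. Setd7 went from 32.3% to 89.4% and Kdm5a from 39.5% to 90.4%. Kdm6a went from 11.1% to 83.3% but was not called by the authors. Kmt2c was listed at 0 in control and had 51.3% in KO. Smaller shifts among called members included Suv39h2, from 11.1% to 49.1%, Dot1l, from 6.2% to 47.9%, and Setd3, from 4.3% to 37.8%. The 2 members with a lower proximal share in KO were Setdb1, from 26.3% to 21.6%, and Setd1a, from 9.6% to 8.3%, and Suv39h1 was almost wholly distal in both (0.7% and 1.2%).

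Message levels of the members are given beside their PAS-seq calls, and the counts by class were not tested. At KO day 4, 23.7% of all genes rose and 22.3% fell (median log2 0.03), and at KO day 6, 33.6% rose and 37.5% fell (median -0.03). Of the 13 called Short, 3 rose and 5 fell at KO day 4 (median log2 -0.05) and 4 rose and 4 fell at KO day 6 (median 0.00). Of the 8 listed but not called, 1 rose and 2 fell at KO day 4 and 2 rose and 4 fell at KO day 6 (median -0.36). Of the 19 without a PAS-seq entry, 4 rose and 4 fell at KO day 4 and 5 rose and 6 fell at KO day 6 (median 0.02). Kdm5b and Setd1b had the widest shifts of the listed members, of 82.0 and 82.3 points, each without a replicate error. At KO day 4, the day of the PAS-seq samples, their log2 changes in message were 0.54 ± 0.09 and -0.05 ± 0.12. At KO day 6 these changes were 1.39 ± 0.09 and 0.21 ± 0.12. Whether the shift and the message change go together was not tested.

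**Figure D5:**
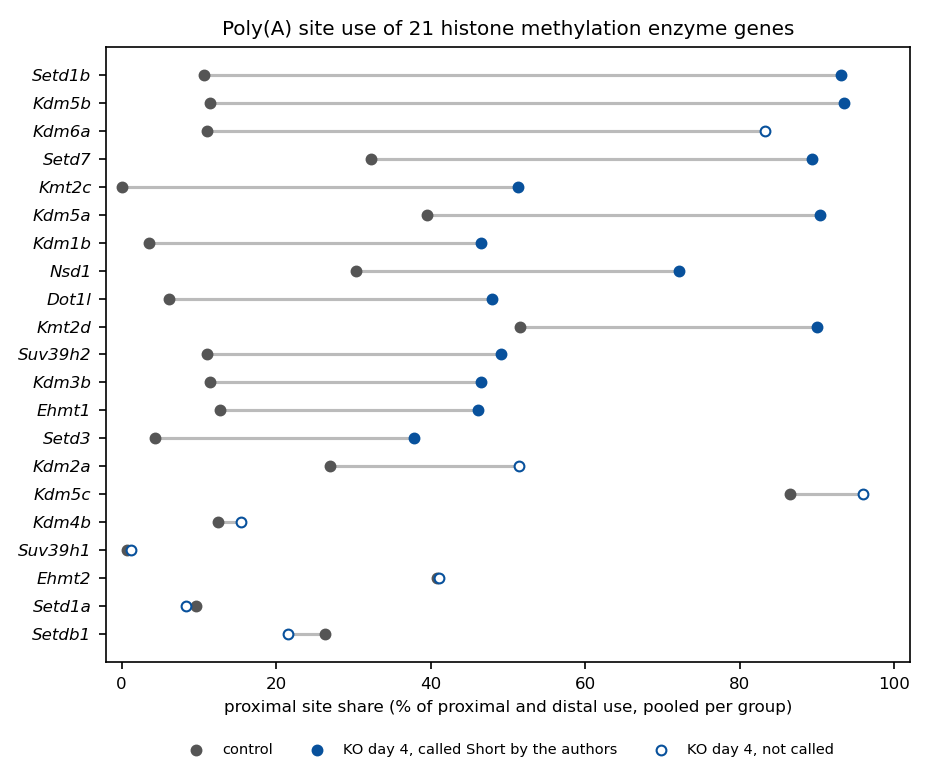
Proximal poly(A) site share in percent (horizontal axis) of the 21 listed genes in control (grey) and KO day 4 (blue, filled where the authors called the gene Short), 1 pooled value per group. Setd1b and Kdm5b move from near 11% to over 93%, and Suv39h1, Ehmt2, Setd1a and Setdb1 barely move.

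Partners of the enzymes are given beside all genes, of which 33.6% rose and 37.5% fell at KO day 6 (median log2 -0.03) and 35.9% rose and 31.3% fell at hypomorph day 6 (median 0.03). Of 9 PRC2 partner genes, 1 rose and 6 fell at KO day 6 (median log2 -0.55) and 1 rose and 7 fell at hypomorph day 6 (median -0.40). Those that fell at KO day 6 included the histone-binding subunit Rbbp7 (log2 -1.50 ± 0.08, limma adjusted p = 2.21e-15), Mtf2 (log2 -1.15 ± 0.11, limma adjusted p = 4.55e-10) and Aebp2 (log2 -0.76 ± 0.08, limma adjusted p = 8.84e-10). Of 14 COMPASS partners, 2 rose and 10 fell at KO day 6 (median -0.54) and 4 rose and 7 fell at hypomorph day 6 (median -0.23). Wdr82, which joins the Setd1 complexes, fell at KO day 6 (log2 -0.93 ± 0.07, limma adjusted p = 1.46e-12), as did Paxip1 (log2 -1.19 ± 0.10, limma adjusted p = 2.15e-11) and Dpy30 (log2 -0.88 ± 0.09, limma adjusted p = 4.2e-10), the last with a small rise, of overlapping libraries, at hypomorph day 6 (log2 0.22 ± 0.09, limma adjusted p = 0.029). Of 11 H3K9 readers and co-repressors, 1 rose and 6 fell at KO day 6 (median -0.49) and 3 rose and 5 fell at hypomorph day 6 (median -0.04). Cbx5, the heterochromatin protein HP1 alpha, fell in both (log2 -1.25 ± 0.08, limma adjusted p = 5.17e-14 and log2 -1.66 ± 0.08, limma adjusted p = 1.42e-16), as did Trim28 (log2 -0.78 ± 0.06, limma adjusted p = 1.23e-11 and log2 -0.66 ± 0.06, limma adjusted p = 6.11e-10), the partner of Setdb1. Atf7ip, which stabilises Setdb1, rose at KO day 6 (log2 0.76 ± 0.09, limma adjusted p = 6.62e-09). At hypomorph day 6 its change was not called (log2 0.16 ± 0.09, limma adjusted p = 0.0913).

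Of 20 further histone lysine methylation enzymes outside the symbol rule, 6 rose and 8 fell at KO day 6 (median log2 -0.10, all genes -0.03) and 7 rose and 5 fell at hypomorph day 6 (median 0.01, all genes 0.03). Of all genes, 33.6% rose and 37.5% fell at KO day 6, and 35.9% rose and 31.3% fell at hypomorph day 6. At KO day 6 Jmjd1c, of the Kdm3 family, rose (log2 1.83 ± 0.08, limma adjusted p = 6.47e-17), and Smyd5 (log2 -2.07 ± 0.13, limma adjusted p = 3.15e-13) and Hr (log2 -1.43 ± 0.10, limma adjusted p = 6.79e-13) fell. Of 9 arginine methyltransferase genes, 2 rose and 7 fell at KO day 6 (median -0.91) and 2 rose and 6 fell at hypomorph day 6 (median -0.19). Prmt5 (log2 -1.54 ± 0.07, limma adjusted p = 1.48e-17), its partner Wdr77 (log2 -1.68 ± 0.08, limma adjusted p = 1.38e-16) and Prmt1 (log2 -1.29 ± 0.08, limma adjusted p = 2.7e-14) fell. The Prmt1 change at hypomorph day 6 was small (log2 -0.19 ± 0.08, limma adjusted p = 0.0404).

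The DNA replication list fell at day 6 of both states. Of 17 genes, 17 fell at KO day 6 (median log2 -2.14) and 16 at hypomorph day 6 (median -1.93), where 37.5% and 31.3% of all genes fell. The list was chosen with earlier results of these data known, so its counts are a description and not a test. At day 4, 10 fell and 1 rose in KO (median -0.31), and 10 fell and 1 rose in the hypomorph (median -0.34). Of all genes, 22.3% fell and 23.7% rose at KO day 4, and 14.1% fell and 17.5% rose at hypomorph day 4. The 10 members that fell at day 6 of both states were Dot1l, Ehmt1, Ezh2, Kdm6a, Kdm8, Setd1a, Setd4, Setdb1, Suv39h1 and Suv39h2, and Ezh2 was among the members that rose at KO day 4. The share of all genes that fell in both states is not given, so that count of members is not set against all genes. Mcm7 (log2 -2.54 ± 0.08, limma adjusted p = 2.02e-20), Mcm5 (log2 -2.71 ± 0.09, limma adjusted p = 6.89e-20) and Mcm2 (log2 -2.33 ± 0.08, limma adjusted p = 9.27e-20), subunits of the replicative helicase, had the smallest p of the list at KO day 6. The part of the replication genes' fall, or of the squamous markers given above, in the changes of the enzymes was not tested. Of the 40 members, 8 overlap another gene of the table (Setd3, Kdm1b, Suv39h2, Setdb1, Kdm1a, Kmt2e, Kdm5a and Setd6), and the counting is not stated to use strand, so their reads may include those of the neighbour.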

How the data were processed

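Messenger RNA was measured in 18 libraries, 3 in each of 6 groups, poly(A)-selected and amplified for 14 PCR cycles, per the labels. Per the submitters' processing notes, STAR and featureCounts were among the tools, and mm10 and mm9 among the genome builds. The deposited signal values are CPM values scaled by the authors, and 100% of them lay within 0.1 of a whole read once divided by the value of 1 read, which gave the depth of each library. No counts as such were used in the main test, although CPM had been assumed when the test was chosen. The authors' deposited table also gave log2 changes, p-values and FDR for the mRNA comparisons, and the PAS-seq table gave a ratio of proximal to distal use per group, both as deposited. The small RNA values were not used.

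Differences were tested, two-sided, with limma 3.58.1 (R 4.3.3, trended and robust) on log2(scaled CPM + 0.5) for the 12344 genes at 1 or more in at least 3 libraries, with a term for group only and Benjamini-Hochberg adjustment over all of them. Levels per length were divided by the gene length that the deposited table gives. That length is the same in every group, so it does not follow changes in poly(A) site use. No label says that the replicate numbers pair the samples. Of the correlations of deviations from the group mean, 10 of 45 for the same number were above 0.1, against 26 of 90 for different numbers. They ran from -0.81 to 0.71 and from -0.75 to 0.78. Deviations within a group sum to 0, so these counts cannot settle whether a pairing exists. Alternatives were edgeR 4.0.16 and DESeq2 1.42.0 on the recovered reads, other scalings, filters and pseudocounts, the compared groups alone, a depth term, shallow libraries alone, libraries with low Alb, and each library left out. Values per library are given for members changed at least 2-fold in a comparison with day 0, those with an authors' PAS-seq call, and the principal enzymes of each mark. Of the other lists, the 3 genes with the smallest p at KO day 6 are named. Members and lists were chosen with earlier results of these data known. Further members were described after their values were seen.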

Additional observations from a re-analysis of the deposited data

Results flagged for a closer look

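For 15 genes the step from day 4 to day 6 differed between the states by the limma interaction of day and state (adjusted p under 0.05). It was higher in the hypomorph for Kdm7a (1.21 log2), Kmt5a (0.79), Setd6 (0.77), Kdm4c (0.59), Ezh2 (0.39), Kdm6a (0.38) and Setd3 (0.3). It was lower in the hypomorph for Setd1b (-0.96), Kmt2e (-0.68), Kmt2d (-0.64), Setd7 (-0.61), Kdm4b (-0.6), Kdm2a (-0.53), Kdm6b (-0.52) and Kmt2b (-0.38). The calls of Kdm6a, Kmt2b and Setd3 ended when 1 library was left out, and without hypomorph day 6 library 1 the Kmt2b value was -0.24 (limma adjusted p = 0.117).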

How the results depend on the processing

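Of 179 called values over the 10 comparisons, 91 kept their call and direction under every alternative run and 88 lost the call under at least 1. The Setd3 difference between hypomorph and KO at day 6 changed sign with plain CPM (-0.01). The KO day 2 count of 2 became 4 with DESeq2, 1 with a depth term and 0 (limma, with 4 at an unadjusted p under 0.05) without libraries with Alb above 100. It was 1 to 2 without 1 library. The KO day 4 count of 19 became 6 with libraries under 30 M reads, 4 without high Alb and 12 to 16 without 1 library. The hypomorph day 4 count of 8 became 13 with plain CPM, 14 with median-of-ratios scaling, 13 with edgeR, 14 with DESeq2, 13 with the compared groups alone, 4 with libraries under 30 M, 0 (limma, with 7 at an unadjusted p under 0.05) without high Alb and 5 to 7 without 1 library. Between hypomorph and KO, the day 4 count of 7 became 3 in both restricted sets and the day 6 count of 21 became 13 in both. The KO day 6 against day 4 count of 23 became 14 without high Alb, and the interaction count of 15 became 6 with libraries under 30 M and 8 without high Alb. The restricted sets hold fewer samples: without high Alb 1 library is left at day 0, KO day 4 and KO day 6, each assumed to vary like the other groups. The other causes were not tested.

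With a replicate block the counts, in the order KO days 2, 4 and 6, hypomorph days 4 and 6, hypomorph against KO at days 4 and 6, day 6 against day 4 in KO and hypomorph, and the interaction, were 3, 20, 25, 10, 29, 7, 22, 24, 32 and 15, and no called value lost its call. The pairing is by number only. KO day 2 could not be fitted with libraries under 30 M reads. Adding a minimum shift of 10 or 20 points to the authors' PAS-seq call could not change the count of 13, since the smallest shift among the called members was 33.4 points. The lowest member value rested on 44 reads.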
